A study of Mus musculus with 8 samples.

Results

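The 35 genes described here encode the enzymes and transporters that take glucose to pyruvate and decide what becomes of that pyruvate, together with Hif1a, the oxygen-regulated subunit of hypoxia-inducible factor. They were chosen by name from the pathway, with earlier results of these data known. Among them are the glucose transporters (Slc2a1 and Slc2a3), the enzymes of glycolysis and of its fructose-2,6-bisphosphate control, and the lactate dehydrogenases. The others are the pyruvate dehydrogenase subunit Pdha1, the kinases that inhibit it (Pdk1 to Pdk4), and the lactate carriers Slc16a1 and Slc16a3. All 35 were found among the 55487 Ensembl genes of the count table, and all 35 were among the 20610 genes that passed the filter of 10 reads summed over the samples.

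In glycolysis glucose is phosphorylated, split into triose phosphates and oxidized to pyruvate, with a small gain of ATP. Pyruvate is then either reduced to lactate by lactate dehydrogenase and exported, or carried into the mitochondrion and oxidized by the pyruvate dehydrogenase complex, which pyruvate dehydrogenase kinases switch off by phosphorylation. Hematopoietic stem cells in the hypoxic bone marrow are known for relying on glycolysis, with hypoxia-inducible factor driving pyruvate dehydrogenase kinases, whereas most steps can be served by isozymes that differ between tissues: Pklr is the pyruvate kinase of liver and red cells, Bpgm makes the red cell regulator of oxygen release, and Eno2 and Aldoc are the brain forms of enolase and aldolase.

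RNA was sequenced from LT-HSCs (lineage-negative, SCA1+, cKIT+, CD48-, CD150+) sorted from fetal liver at E14.5 (E for embryonic day), with 500 cells per sample. The groups were 3 samples with both copies of Nfkbia (WT), 3 with a single intact copy (HET) and 2 with none (KO). Nfkbia encodes IκBα, the inhibitor of NF-κB, and the knockout is not restricted to a cell type. The methods state that a further KO library was set aside for its sequencing quality. WT1, WT2 and HET1 were labelled male and total RNA, and the other 5 samples, both KO samples among them, were labelled female and polyA RNA, so that sex and the molecule label cannot be told apart and KO has no male sample. The question put to the data was whether loss of IκBα goes with another level of these genes, with WT and HET pooled as the reference and sex as a covariate, as in the study.

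Read totals ran from 17895973 to 21720972 per sample. Nfkbia had 243 to 1621 reads in the WT and HET samples and 1 and 0 in KO1 and KO2. The libraries did not carry the LT-HSC label equally. The summed level of 10 LT-HSC markers was 309 CPM (reads scaled to a total of 1000000 per library) in WT3 and 209 in HET3. It was 649 and 803 in HET2 and HET1, and 1281 to 2191 in WT1, WT2, KO1 and KO2. Ly6a, which encodes the sorted antigen SCA1, was at 5.0 CPM in WT3 and 0 in HET3. Slamf1, which encodes CD150, was at 19.8 and 13.0 CPM there and at 22.7 to 124 in the other 6. Kit, which encodes the sorted antigen cKIT, was not low there, at 148 and 170 CPM against 135 to 231. Klf1, the erythroid transcription factor, followed another order, with 1040, 731, 941 and 1227 CPM in WT3, HET1, HET2 and HET3. In WT1, WT2, KO1 and KO2 it was at 114, 85.4, 36.2 and 518. Summed over 10 erythroid markers, Klf1 and globins among them, the level was highest in HET1 (14651 CPM). It was 5581 in HET2, 3652 in HET3, 3225 in WT3, 3234 in KO2 and 706 to 1499 in WT1, WT2 and KO1. The sum of 10 hepatocyte markers was 1518 CPM in WT3 and 772 in HET3 and 55.7 to 309 in the other 6. The part of these differences in the results below was not tested, and in bulk RNA fewer cells of a type cannot be told apart from less RNA per cell. Counts from the fit of KO against WT/HET are therefore also given without WT3 and HET3. With no male KO sample and sex in that fit, the KO samples are then compared with HET2 alone, the only female reference left.

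The 35 genes together took 0.615% to 0.780% of the counted reads of a sample, with the highest shares in HET3 and WT3 (0.750%). Levels are compared between genes as RPKM, the CPM per kilobase of exon, given as mean ± SD over the 8 samples. Ldha, which reduces pyruvate to lactate, had the highest level of the 35 at 576 ± 232. Tpi1 (triose phosphate isomerase) stood at 352 ± 78.4 and Aldoa, the ubiquitous aldolase, at 305 ± 64.3, and the SDs of these 3 genes overlap with one another. Next came Pkm (92.2 ± 26.7), Pdk3 (79.4 ± 14.6) and Gpi1 (66.9 ± 6.93), the glucose-6-phosphate isomerase. Pdk4 (0.055 ± 0.084), Eno2 (0.280 ± 0.274), Hk3, Pfkfb2 and Pfkfb3 had mean levels below 1 RPKM.

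Several middle steps of the pathway had low counts, and Gapdh, the enzyme that oxidizes glyceraldehyde-3-phosphate, had 5.75 to 11.5 CPM and 2.04 ± 0.499 RPKM. The mouse genome holds many processed copies of Gapdh, and the study kept only reads with a single place in the genome. Of the 950 words of 50 bases (the read length) in the Gapdh coding sequence, all 950 occurred in at least 1 other annotated gene. The word shared most widely, at coding positions 415 to 464, occurred in 83 other genes and is shown to make plain why such a read could not be placed, with no base in capitals because no base differs.

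Gapdh coding 415 to 464: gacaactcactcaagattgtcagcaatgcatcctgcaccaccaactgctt

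The 113 Gapdh copies that share at least 50 such words, 109 of them annotated pseudogenes, held 24822 reads over the 8 samples, against 1357 on Gapdh itself (chr6:125161715-125166467, minus strand, GRCm38). Of the longest mRNA, 82.5% of the 50-base words were shared for Gapdh, 72.2% for Eno1, 68.0% for Pgk1, 41.5% for Pgam1 and 34.4% for Pkm. Pgk1, phosphoglycerate kinase, was at 9.83 ± 1.36 RPKM and Pgam1, the mutase of the next step, at 3.40 ± 0.612. Tpi1, one step upstream and at 7.51% shared, had a level of 352 RPKM. The counts of Gapdh, Pgk1, Pgam1 and Eno1 thus hold only the reads from the part of the mRNA that is not shared, and neither RPKM nor a share built on it accounts for the rest. For 18 of the 35 genes no 50-base word was shared.

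**Figure D1:**
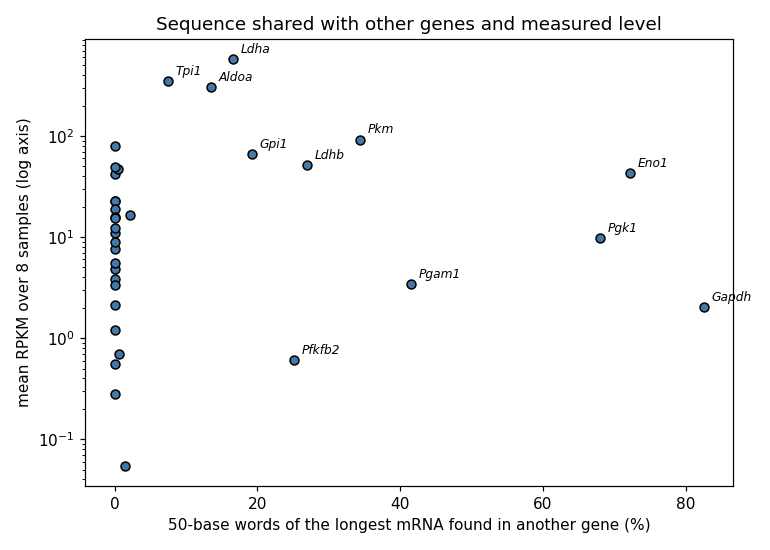
Each point is 1 of the 35 genes: the share of 50-base words of its longest mRNA found in another gene (x axis, percent) against its mean level over 8 samples (y axis, RPKM, log axis). Gapdh, Eno1, Pgk1 and Pgam1 lie to the right, with Gapdh at 82.5% shared and a level of 2.04 RPKM, whereas Ldha, Tpi1 and Aldoa, at the top, share 16.6%, 7.51% and 13.5%.

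Within a step, the isozyme share is the isozyme's part of the summed RPKM of that step. In 10 of the 11 steps with several genes the leading isozyme was the same in all 8 samples, the exception being the PFKFB enzymes, where Pfkfb4 led in KO2 and Pfkfb1 in the other 7. Slc2a1 (GLUT1) made up 75.0% ± 4.52 of the glucose transporter pair, Hk1 80.5% ± 6.32 of the hexokinases, Pfkl (liver type) 64.7% ± 4.85 of the phosphofructokinases and Aldoa 98.7% ± 1.19 of the aldolases (mean ± SD, n = 8). Eno1 made up 87.3% ± 3.15 of the enolases, Slc16a1 (MCT1) 84.8% ± 3.65 of the monocarboxylate carriers and Pdk3 73.8% ± 2.47 of the pyruvate dehydrogenase kinases. Bpgm led Pgam1 at 76.3% ± 3.06, with 41.5% of the Pgam1 words shared and no Bpgm word.

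The isozymes of lactate dehydrogenase and pyruvate kinase differed widely in share between samples. Ldhb, the lactate dehydrogenase that favors the return of lactate to pyruvate, held 23.9%, 24.5% and 0.740% of its step in WT1 to WT3, 7.15%, 4.14% and 0.175% in HET1 to HET3, and 17.3% and 6.81% in KO1 and KO2. WT1 and WT2 were highest, and the KO samples lay between them and WT3 and HET3. Pklr held 4.50%, 4.11% and 28.9% of the pyruvate kinases in WT1 to WT3, 18.5%, 26.3% and 28.4% in HET1 to HET3, and 1.94% and 16.6% in KO1 and KO2. The order was close to that of Klf1, with KO1 lowest and WT3 and HET3 highest. The sum of 10 erythroid markers was highest in HET1 instead. Of the exon length of Pklr, 21.97% overlaps Hcn3 on the other strand.

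**Figure D2:**
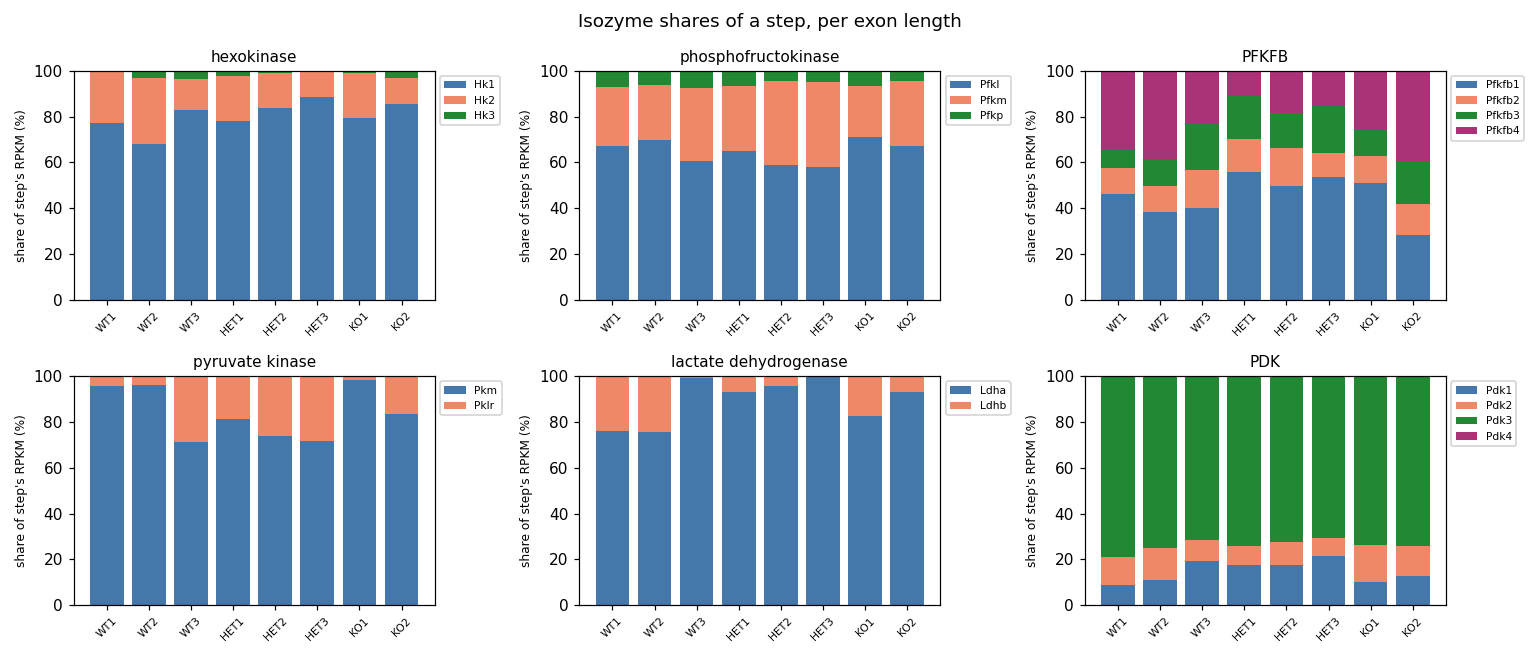
Stacked bars give, for 6 steps and each of the 8 samples, the percent of the step's summed RPKM held by each isozyme (y axis, 0 to 100%). Ldhb ranges from 0.175% in HET3 to 24.5% in WT2 and Pklr ranges from 1.94% in KO1 to 28.9% in WT3, whereas the Pdk3 share stays between 70.9% and 78.9%.

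In KO against WT/HET, no gene of the 35 passed the call of adjusted p below 0.05 with a log2 fold change beyond 1 (edgeR quasi-likelihood test, Benjamini-Hochberg), and neither did any of the 20610 genes (0%). The 20610 genes include Nfkbia, with 1 and 0 reads in KO1 and KO2, so this call missed even the deleted gene. An absence of calls thus does not show equal levels. At an unadjusted p below 0.05, 7 of the 35 were higher in KO (20%), against 15.7% of all genes tested, and 9 were lower (25.7%), against 9.48% of all genes. Those higher were Slc2a3, Pfkfb4, Aldoc, Eno2, Pkm, Ldhb and Pdk2, and those lower were Aldoa, Tpi1, Bpgm, Eno1, Eno3, Ldha, Pdk1, Pdha1 and Slc16a3. Adjusted p-values of these 16 genes ran from 0.148 to 0.197 in the edgeR test. The median log2 fold change was -0.12 over the 35 genes and 0.13 over all genes tested.

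The same contrast in DESeq2 with apeglm shrinkage, the tool of the study, called 7.10% of all genes and 3 of the 35: Eno2 (shrunken log2 fold change 5.21, adjusted p = 0.00188), Aldoc (1.98, adjusted p = 0.0241) and Slc16a3 (-1.26, adjusted p = 0.0173). Without shrinkage DESeq2 called 4 of the 35 (8.85% of all genes), and edgeR with no filter on low counts also called 4 (3.51% of all genes), Eno1 being added in both. Without WT3 and HET3 the edgeR test left 1 of the 35 at an unadjusted p below 0.05 (Eno2), higher in KO, against 4.07% of all genes, and 0 lower, against 1.02% of all genes, with 0 called. With scaling by library size alone the split turned, to 10 of the 35 higher and 4 lower at an unadjusted p below 0.05. All 20610 genes then had 4581 higher and 956 lower, and their median moved up by 0.279 on the log2 scale. With sex left out of the fit, 0 of the 35 passed at an unadjusted p below 0.05, against 222 higher and 190 lower of all 20610 genes.

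**Figure D3:**
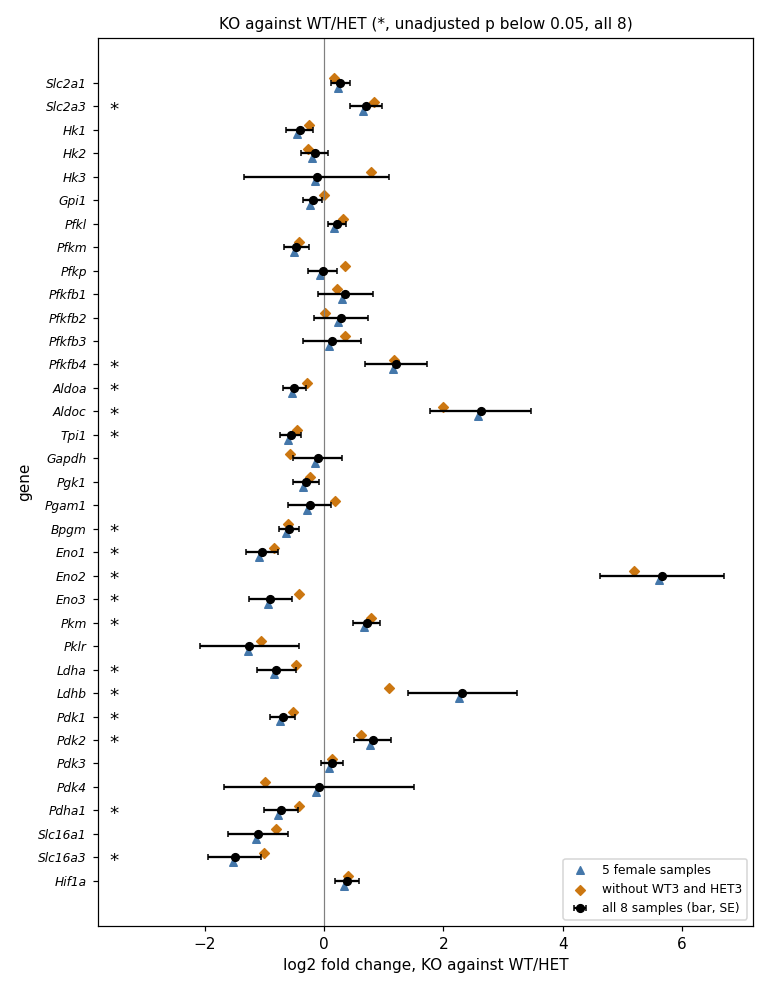
Log2 fold change of KO against WT/HET for the 35 genes in pathway order (black points with SE bars, all 8 samples), with the fit of the 5 female samples (triangles) and the fit without WT3 and HET3 (diamonds); stars mark an unadjusted p below 0.05 with all 8 samples. Eno2 lies farthest out at 5.67, Aldoc and Ldhb follow at 2.62 and 2.32, and the Ldhb value is 1.08 without WT3 and HET3.

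Glucose entry and trapping came first. Slc2a1, the basal glucose transporter, was counted at 85.5, 106 and 57.2 CPM in WT1 to WT3, 98.2, 68.9 and 68.9 in HET1 to HET3, and 80.6 and 76.5 in KO, with a log2 fold change of 0.27 ± 0.16 (SE; edgeR adjusted p = 0.312). The groups overlapped. Slc2a3, the high-affinity transporter GLUT3, was at 60.8, 75.5 and 37.2 CPM in WT1 to WT3, 40.8, 38.1 and 52.1 in HET1 to HET3 and 64.6 and 73.6 in KO, and its log2 fold change was 0.70 ± 0.27 (edgeR adjusted p = 0.170). Both KO values lay above the 3 HET samples and WT3 but within the range of WT1 and WT2.

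Hk1, the hexokinase of most tissues, was at 145, 147 and 230 CPM in WT, 204, 209 and 277 in HET and 148 and 211 in KO, with a log2 fold change of -0.41 ± 0.23. The KO samples straddled the HET1 and HET2 values. Hk2, the insulin-regulated and hypoxia-inducible form, ran from 19.6 (KO2) to 42.8 CPM (WT2), and Hk3, a form of myeloid cells, from 0.140 to 4.48 CPM. Gpi1 was among the steadiest of the 35, at 401, 401 and 487 CPM in WT, 428, 404 and 515 in HET and 397 and 421 in KO, with a log2 fold change of -0.19 ± 0.16.

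Phosphofructokinase commits sugar to glycolysis. Pfkl was at 289, 301 and 253 CPM in WT, 258, 240 and 295 in HET and 301 and 306 in KO, a highest-to-lowest ratio of 1.27 over all 8 samples and a log2 fold change of 0.21 ± 0.15. Pfkm, the muscle form, ranged from 47.6 to 94.1 CPM (log2 fold change -0.47 ± 0.21, edgeR adjusted p = 0.206) and Pfkp, the platelet form, from 37.3 to 62.4 CPM (-0.02 ± 0.24).

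The PFKFB enzymes make and remove fructose-2,6-bisphosphate, the activator of phosphofructokinase. All 4 genes were low. Pfkfb1 was at 8.33, 8.57 and 6.15 CPM in WT, 12.5, 7.57 and 7.36 in HET and 13.5 and 4.52 in KO, so that the KO samples held the highest and the lowest value. Pfkfb2 lay between 2.55 and 5.80 CPM and Pfkfb3 between 2.67 and 7.87. Pfkfb4 was at 7.58, 10.4 and 4.32 CPM in WT, 3.03, 3.43 and 2.55 in HET and 8.22 and 7.62 in KO, with a log2 fold change of 1.20 ± 0.52 (edgeR adjusted p = 0.197). Both KO samples and WT1 and WT2 were above the other 4.

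The 2 aldolases differed in their order of samples. Aldoa was at 757, 709 and 1185 CPM in WT1 to WT3, 875, 909 and 1140 in HET1 to HET3 and 686 and 837 in KO1 and KO2 (log2 fold change -0.50 ± 0.19, edgeR adjusted p = 0.170). Aldoc was at 23.9, 23.6 and 2.92 CPM in WT, 3.94, 3.63 and 0.593 in HET and 17.5 and 12 in KO, a log2 fold change of 2.62 ± 0.84 (edgeR adjusted p = 0.152). For Aldoc the KO samples lay below WT1 and WT2 and above the other 4, and the same 4 samples had the highest Aldoa. Tpi1 had 785, 745 and 1265 CPM in WT, 951, 1098 and 1262 in HET and 762 and 877 in KO, with a log2 fold change of -0.56 ± 0.18 (edgeR adjusted p = 0.152). KO2 was below every sample except WT1, WT2 and KO1.

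Gapdh showed 7.21, 9.65 and 5.78 CPM in WT, 9.20, 11.5 and 8.19 in HET and 10.03 and 5.75 in KO, and the log2 fold change was -0.11 ± 0.41. With the reads of its 113 copies added, the levels became 134, 51.0 and 301 CPM in WT, 150, 54.1 and 316 in HET and 128 and 222 in KO. The samples then stood in another order, with WT3 and HET3 highest, and the log2 fold change was -0.36 ± 0.71. Pgk1 was at 19.5, 18.3 and 24.1 CPM in WT, 23.8, 23.3 and 27.3 in HET and 19.5 and 20.8 in KO (log2 fold change -0.30 ± 0.22), and Pgam1 ranged from 5.45 to 8.60 CPM.

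Bpgm, bisphosphoglycerate mutase (chr6:34476207-34505613, plus strand), was the only one of the 35 with both KO samples on the same side of all 6 others, against 1.79% of all genes with both KO samples below and 3.05% with both above. It was at 38.0, 34.97 and 44.9 CPM in WT1 to WT3, 40.7, 46.4 and 49.0 in HET1 to HET3, and 33.5 and 28.8 in KO1 and KO2. The log2 fold change was -0.59 ± 0.17 (edgeR adjusted p = 0.151) and -0.60 without WT3 and HET3 (unadjusted p = 0.0691). The gap between KO1 and the nearest WT sample was small beside the spread of the WT group (39.3 ± 5.12 CPM, SD, n = 3). No 50-base word of its mRNA was shared with another gene.

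Enolase makes phosphoenolpyruvate. Eno1 was counted at 142, 134 and 338 CPM in WT1 to WT3, 225, 286 and 385 in HET1 to HET3 and 144 and 183 in KO1 and KO2, and its log2 fold change was -1.04 ± 0.27 (edgeR adjusted p = 0.148). The KO samples were below WT3 and all HET samples and above WT1 and WT2. With the reads of its copies added the log2 fold change was -1.02 ± 0.25. Eno3, the muscle enolase, was at 5.99, 9.61 and 13.5 CPM in WT, 8.62, 9.28 and 16.6 in HET and 6.80 and 7.28 in KO (log2 fold change -0.90 ± 0.37, edgeR adjusted p = 0.180).

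Eno2, neuronal enolase (chr6:124760053-124769673, minus strand), had the largest fold change of the 35, from few reads. It had 68, 59 and 1 reads in WT1 to WT3, 11, 1 and 0 in HET1 to HET3, and 38 and 48 in KO1 and KO2. The KO samples were thus below WT1 and WT2 and above the other 4. The fitted log2 fold change was 5.67 ± 1.04 (edgeR adjusted p = 0.148), which compares KO with the female WT3, HET2 and HET3, where the gene was at or under the floor of 3 reads per library. Against that floor the KO mean of 2.11 CPM was at least 13.0-fold higher. Without WT3 and HET3 the log2 fold change was 5.20, with HET2, at 1 read, as the only female reference.

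Pkm, whose splice forms PKM1 and PKM2 a gene count cannot separate, was at 640, 578 and 310 CPM in WT1 to WT3, 403, 306 and 371 in HET1 to HET3 and 605 and 476 in KO1 and KO2. The log2 fold change was 0.71 ± 0.22 (edgeR adjusted p = 0.152), and both KO samples were above WT3 and the 3 HET samples, with KO1 between WT1 and WT2 and KO2 below them. An unnamed gene model, Gm49759, overlaps 15.3% of its exons on the same strand. Pklr ranged from 7.73 CPM in KO1 to 95.3 in HET3, with 61.5 in KO2, and the log2 fold change was -1.25 ± 0.82 (edgeR adjusted p = 0.354). KO1 was the lowest of the 8 samples and KO2 lay between HET1 and HET2.

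The lactate dehydrogenases also differed in their order of samples. Ldha was at 1075, 1125 and 2901 CPM in WT1 to WT3, 1892, 2109 and 3065 in HET1 to HET3 and 1232 and 1858 in KO1 and KO2 (log2 fold change -0.80 ± 0.32, edgeR adjusted p = 0.177). Ldhb was at 160, 173 and 10.3 CPM in WT1 to WT3, 69.1, 43.2 and 2.55 in HET1 to HET3 and 122 and 64.4 in KO1 and KO2 (log2 fold change 2.32 ± 0.91, edgeR adjusted p = 0.174). WT1 and WT2 had the lowest Ldha and the highest Ldhb, and HET3 the reverse. Without WT3 and HET3, the log2 fold changes were -0.48 for Ldha (unadjusted p = 0.328) and 1.08 for Ldhb (unadjusted p = 0.130). Without HET2, Ldhb was the single gene of the 35 that edgeR called (log2 fold change 3.86, adjusted p = 0.0420), against 3.54% of all genes called in that fit. With sex in that fit, the KO samples are compared with WT3 and HET3, the only female references left and the samples with the lowest LT-HSC marker sums.

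**Figure D4:**
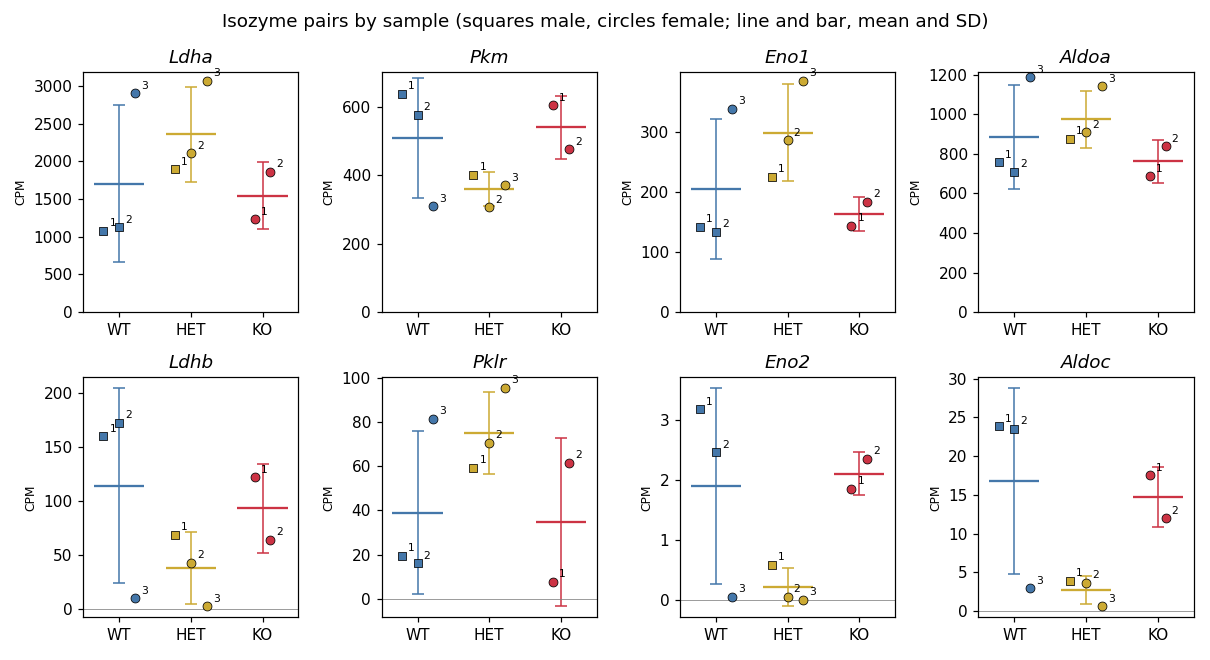
CPM of 4 isozyme pairs in each sample (points, numbered by replicate; squares male, circles female), with the mean and SD of WT (n = 3), HET (n = 3) and KO (n = 2). The KO points of Ldha (1232 and 1858) and Ldhb (122 and 64.4) lie within the WT range of 1075 to 2901 and 10.3 to 173.

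The pyruvate switch had members on both sides. Pdk1, the kinase that hypoxia-inducible factor induces, was at 96.4, 103 and 140 CPM in WT1 to WT3, 134, 128 and 172 in HET1 to HET3 and 82.0 and 99.3 in KO1 and KO2 (log2 fold change -0.69 ± 0.21, edgeR adjusted p = 0.152). Pdk2, the most widely expressed kinase of the family in adult tissues, was at 53.2, 55.1 and 26.5 CPM in WT, 26.6, 30.5 and 24.5 in HET and 53.0 and 42.5 in KO (log2 fold change 0.82 ± 0.31, edgeR adjusted p = 0.166). In both genes the KO samples were close to WT1 and WT2 and apart from the HET samples.

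Pdk3, the leading kinase by level, was at 282, 236 and 171 CPM in WT, 188, 174 and 186 in HET and 195 and 194 in KO, with a log2 fold change of 0.13 ± 0.18, and Pdk4, the starvation-induced form, had 0 to 19 reads in a sample. Pdha1, the regulated catalytic subunit of pyruvate dehydrogenase, was at 126, 108 and 242 CPM in WT1 to WT3, 178, 191 and 286 in HET1 to HET3 and 115 and 175 in KO1 and KO2 (log2 fold change -0.73 ± 0.28, edgeR adjusted p = 0.173). WT3 and HET3 were again the highest.

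Lactate leaves cells through the carriers MCT1 (Slc16a1) and MCT4 (Slc16a3). Slc16a1 was at 103, 87.4 and 306 CPM in WT1 to WT3, 230, 268 and 441 in HET1 to HET3 and 92.0 and 222 in KO1 and KO2 (log2 fold change -1.11 ± 0.51, edgeR adjusted p = 0.212). Slc16a3 was at 17.0, 29.4 and 71.7 CPM in WT1 to WT3, 32.2, 57.3 and 118 in HET1 to HET3 and 19.2 and 39.2 in KO1 and KO2 (log2 fold change -1.50 ± 0.44, edgeR adjusted p = 0.151), and -1.003 without WT3 and HET3 (unadjusted p = 0.0996). For both carriers KO1 was near WT1 and KO2 near HET1. Hif1a was at 133, 110 and 86.0 CPM in WT, 92.3, 76.1 and 71.7 in HET and 116 and 88.1 in KO, with a log2 fold change of 0.39 ± 0.20 (edgeR adjusted p = 0.253), overlapping with WT.

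**Figure D5:**
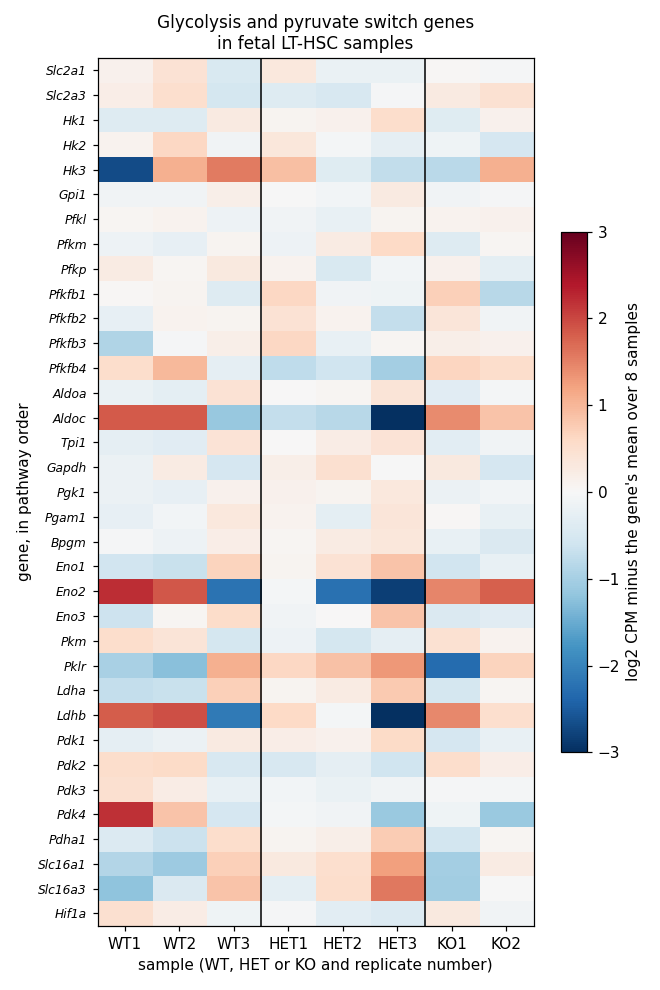
Color gives log2 CPM (prior count of 2) minus the gene's mean over the 8 samples, for the 35 genes in pathway order (rows) and the samples (columns). Eno2, Aldoc and Ldhb are high in WT1, WT2, KO1 and KO2 and low in WT3 and HET3, while Ldha, Slc16a1 and Slc16a3 are highest in HET3. For Ldhb, HET1 (log2 CPM of 6.11) lies above KO2 (6.01).

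The core letters that hypoxia-inducible factor binds include ACGTG, which on the other strand reads as the word CACGT, and many genes of this pathway are known targets. RefSeq start sites (GRCm38.p6) were matched for 34 of the 35 genes. In the 250 bases before the start, 16.6% of all 32851 windows held these letters on either strand, as did 37.0% of the 54 windows of these genes. The windows of 3 genes are printed because Ldha and Slc16a3, with negative log2 fold changes, and Ldhb, with a positive one, differ in these letters; capitals mark each ACGTG or CACGT.

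Ldha, chr7:46845554-46845803, plus strand: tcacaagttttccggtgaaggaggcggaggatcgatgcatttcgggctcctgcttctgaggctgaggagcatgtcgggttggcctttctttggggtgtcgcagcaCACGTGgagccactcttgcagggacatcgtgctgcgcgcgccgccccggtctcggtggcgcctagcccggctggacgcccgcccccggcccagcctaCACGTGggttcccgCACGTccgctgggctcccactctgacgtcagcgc
Slc16a3, chr11:120948817-120949066, plus strand: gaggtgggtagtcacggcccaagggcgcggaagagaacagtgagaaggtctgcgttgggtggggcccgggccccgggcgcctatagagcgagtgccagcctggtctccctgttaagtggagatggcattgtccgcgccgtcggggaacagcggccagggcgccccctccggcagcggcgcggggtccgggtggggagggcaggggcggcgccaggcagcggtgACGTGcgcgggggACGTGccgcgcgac
Ldhb, chr6:142507958-142508207, minus strand: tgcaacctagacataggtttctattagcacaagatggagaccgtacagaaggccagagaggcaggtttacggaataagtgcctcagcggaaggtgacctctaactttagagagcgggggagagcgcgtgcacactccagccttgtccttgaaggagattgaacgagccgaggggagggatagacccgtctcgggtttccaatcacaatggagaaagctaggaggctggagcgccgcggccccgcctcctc

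The Ldha window held 2 copies of CACGTG, the letters of an E-box that reads the same on both strands and contains both forms, and 1 further CACGT. The Slc16a3 window held 2 copies of ACGTG and the Ldhb window none. Eno1 and Pdk1, whose log2 fold changes were also negative, held none in this window either, and Pkm and Pdk2, with positive ones, did. Only ACGTG and CACGT were counted, so the GCGTG in the Ldhb window, which differs in the first base, was left out. The letters do not show binding, and no factor was measured.

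Ratios between isozymes of a step do not depend on how libraries are scaled. For 10 pairs the difference of mean log2 ratio between KO and WT/HET was tested by an exact two-sided permutation test, which cannot go below p = 0.0714 with 2 against 6 samples. The lowest p was 0.0714, for Slc2a1/Slc2a3 (Benjamini-Hochberg adjusted over the 10 pairs, 0.714), which is the smallest this test can give, so that the design allowed no pair to pass. That ratio was lower in KO by 0.50 on the log2 scale (0.19 ± 0.19 in KO, n = 2; 0.53 ± 0.08 in WT and 0.84 ± 0.43 in HET, n = 3 each), and both KO samples, at 0.32 and 0.05, were below the lowest other sample at 0.40.

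The Ldha/Ldhb ratio spanned 7.47 log2 units over the 8 samples, from 2.702 in WT2 to 10.2 in HET3, with 3.33 and 4.85 in KO1 and KO2. Its mean was 1.60 lower in KO than in WT/HET (exact permutation p = 0.643). The Aldoa/Aldoc ratio spanned 5.78 units and the Pkm/Pklr ratio 4.34, the latter with 6.27 in KO1 and 2.95 in KO2. Pdk1/Pdk2 was 0.97 lower in KO (exact permutation p = 0.286), with 0.63 and 1.22 in KO against 0.86 and 0.91 in WT1 and WT2 and 2.06 to 2.81 in the other 4. For both KO samples the lactate dehydrogenase and aldolase ratios lay below the 3 female WT and HET samples and inside the range of all 6.

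Sex and molecule label went with these genes as well. In the fit of all 8 samples, with WT and HET pooled, the male, total RNA samples were set against the female ones. At an unadjusted p below 0.05, 9 of the 35 were higher in males (18.9% of all genes) and 9 lower (13.6%). The male-minus-female coefficient is estimated within WT and HET alone, from the samples that also serve as the KO reference. The males are WT1, WT2 and HET1, so the coefficient also holds any difference between WT and HET. Ldha had a male-minus-female log2 difference of -0.98 (edgeR adjusted p = 0.0901), Ldhb of 2.84 (adjusted p = 0.0915), Slc16a3 of -1.65 (adjusted p = 0.0895), and Eno2 of 5.65 (adjusted p = 0.0895). The female WT and HET samples are WT3, HET2 and HET3, which carry 3 of the 4 highest Klf1 levels and the 3 lowest LT-HSC marker sums. The highest erythroid marker sum was in HET1, a male sample.

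Among the 5 female samples alone, both KO samples were above all 3 others for 11 of the 35 genes (27.1% of all genes) and below all 3 for 13 (21.4% of all genes). The log2 fold changes of this fit differed by at most 0.056 from those with all 8 samples. With sex in the fit and no male KO sample, the female samples set both, so this is no separate support. At an unadjusted p below 0.05, 6 genes were higher and 10 lower (12.6% and 12.3% of all genes), with 0 called. Against WT alone, 1 of the 35 was higher and 4 were lower at that threshold (1200 and 528 of all 20610 genes). Against HET alone 7 were higher and 10 lower (3380 and 2354 of all genes).

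HET against WT asked whether losing a single copy of Nfkbia goes with a difference. No gene of the 35 was called by edgeR, as for all 20610 genes (0%), and DESeq2 called 64 genes and 0 of the 35. At an unadjusted p below 0.05, 1 of the 35 was higher in HET, against 1.80% of all genes, and 0 were lower, against 1.82%. That gene was Slc16a1, at 165 ± 122 CPM in WT and 313 ± 112 in HET (SD, n = 3 each), with a log2 fold change of 0.74 ± 0.30 (edgeR adjusted p = 0.932). WT3 lay among the HET samples, and without HET1 the log2 fold change was 0.20. Without HET2, edgeR called 2 of the 35, Aldoc (log2 fold change -2.48, adjusted p = 0.0333) and Ldhb (-1.52, adjusted p = 0.0396), against 0.655% of all genes. With the replicate number as a block, 2 of the 35 were higher at an unadjusted p below 0.05 (Slc16a1 and Slc16a3), against 0.82% of all genes, and 2 were lower (Aldoc and Ldhb), against 4.39%, with 0 called. In the blocked fit the sex term takes up the one pair of unlike sex, WT2 and HET2, so that the other 2 pairs decide the contrast. The median log2 fold change was 0.04 over the 35 genes and 0.00 over all genes.

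Pathway genes outside the 35 were taken from a list of 50, of which 46 passed the filter. In KO against WT/HET, 0 were called by edgeR, and at an unadjusted p below 0.05 4 were higher and 9 lower (15.7% and 9.48% of all genes). Of the 8 pentose phosphate genes 4 were lower and 0 higher, and of the 9 genes of pyruvate entry and the dehydrogenase complex 4 were lower and 1 higher. Of the 13 genes of HIF control and HIF targets 1 was higher, and of the 4 gluconeogenesis genes tested none passed.

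The pentose phosphate members with the smallest p were Taldo1 (transaldolase, log2 fold change -0.89 ± 0.29), Rpia (ribose-5-phosphate isomerase, -1.51 ± 0.50) and G6pdx (the entry enzyme of the pathway, -1.01 ± 0.36). The dehydrogenase complex gave Pdhb (the partner subunit of Pdha1, -0.57 ± 0.16), Dld (-0.74 ± 0.24) and Dlat (-0.76 ± 0.29), and Pdp1, the phosphatase that opposes the kinases, 0.86 ± 0.36. These 3 complex subunits and Pdha1 thus all had negative log2 fold changes, and each was highest in HET3 and WT3.

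Ldhc, the testis lactate dehydrogenase, was at 0 in both KO samples and at 0 to 2.60 CPM in the others. Car9, a carbonic anhydrase and HIF target, had a log2 fold change of 0.75 ± 0.28, with 20.7 and 15.9 CPM in KO and 8.66 to 18.7 in the others.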

How the data were processed

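The study sequenced RNA of 500 LT-HSCs per sample, in groups of 3 (WT), 3 (HET) and 2 (KO) samples. Per the submitters' notes and the methods, the authors trimmed reads with Trim Galore 0.6.6, aligned them to GRCm38 with STAR 2.7.8 with 1 mismatch allowed, and deposited counts of uniquely mapped reads per Ensembl gene. Whether counting used strand is not given in the sources used here. A normalized table of the authors was not used.

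From the counts, genes with at least 10 reads over the 8 samples were tested with edgeR 4.0.16 (R 4.3.3; quasi-likelihood, TMM, sex and genotype; calls at adjusted p below 0.05 and a log2 fold change beyond 1). DESeq2 1.42.0 with apeglm 1.24.0 was an alternative. CPM is scaled by TMM, RPKM by the union of exons (GENCODE M21), and log2 ratios use a prior count of 2. The fit was tested on simulated data. Of 55487 gene identifiers, 55227 matched the annotation. The 35 genes and the lists were chosen with earlier results of these data known. Values per sample are given for the leading isozyme of each step, for single-gene steps and for genes with an unadjusted p below 0.05 or both KO samples beyond the 6 others, and up to 10 pathway genes outside the 35 are named by the same condition, except that 1 is not reported here. Pklr, and the order of samples within a gene, were described after values were seen. Same-numbered WT and HET samples deviated together from their group means (r = 0.65, 0.49 and 0.77). WT2 did so with HET1 (0.69) and WT1 with HET2 (0.41). KO1 went with WT1 and HET1 (0.56 and 0.45), whereas KO2 went against WT2 and HET2 (-0.60 and -0.34). The deviations of 2 KO samples from their mean are equal and opposite, so these values cannot show whether KO is paired. Sex was not removed from the deviations. Whether the numbers pair any samples was thus not settled by the data or the labels, and the main fits used no pairing. P-values measure the spread between embryos of a group. With 2 KO samples, a single library can decide a value.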

Additional observations from a re-analysis of the deposited data

How the results depend on the processing

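Of the 16 genes with an unadjusted p below 0.05 in KO against WT/HET, all 16 kept their direction under every alternative, and the number still below 0.05 was 0 without the sex covariate, 1 without both WT3 and HET3 (chosen after seeing the data), 5 against WT alone, 11 with library size alone and 14 against HET alone. Fits with sex that leave out male samples alone rest on the same female samples, so a kept direction there is no separate support. Calls by edgeR among the 35 were 0 except in 2 settings, and DESeq2 made some as well. There were 4 calls with the DESeq2 Wald test (8.85% of all genes) and 4 with no filter on low counts (3.51%). In both these were Eno1, Eno2, Aldoc and Slc16a3. With apeglm there were 3 calls (7.10% of all genes). Without HET2, where WT3 and HET3 are the only female references, edgeR called 1, Ldhb (3.54%). In HET against WT, the calls ranged from 0 to 2 with 1 replicate left out. The cause of these changes was not tested.

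Genes of the 35 higher in KO at an unadjusted p below 0.05 numbered 0 without the sex covariate, 1 against WT alone and 1 without both WT3 and HET3, and 1 to 7 with 1 replicate left out (7 with all). Those lower numbered 4 with library size alone, 0 without the sex covariate, 4 against WT alone, 0 without both WT3 and HET3, and 2 to 11 with 1 replicate left out (9 with all). The counts over all 20610 genes moved with the setting as well, from 3242 higher and 1954 lower with all samples. The lowest counts of these ranges came without KO1, where all genes had 1285 higher and 345 lower. The highest count of lower genes came without KO2 (2328 of all genes). Without WT3, 3 were higher (2136 of all genes), and without HET3, 5 were lower (1009 of all genes). With library size alone, all genes had 4581 higher and 956 lower. The pathway genes outside the 35 that were higher numbered 8 with library size alone, 0 without the sex covariate, 1 against WT alone, 2 with female samples only, 1 without both WT3 and HET3, and 1 to 5 with 1 replicate left out (4 with all). Those lower numbered 1 without the sex covariate, 2 against WT alone, 1 without both WT3 and HET3, and 2 to 13 with 1 replicate left out (9 with all).

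Whether replicate numbers pair the KO samples with the others is not known. With a replicate block beside sex in KO against WT/HET, 2 of the 35 were higher and 0 lower at that threshold (393 and 196 of all 20610 genes). Of the pathway genes outside the 35, 0 were higher and 1 lower. The block reversed the log2 fold change of Hk3 (1.27), Gpi1 (0.025), Pfkp (0.24), Pfkfb1 (-0.31), Pfkfb2 (-0.084) and Pgam1 (0.13), none of them below an unadjusted p of 0.05 with all samples.

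Library size alone reversed Hk2 (0.13), Hk3 (0.11), Gpi1 (0.090), Pfkp (0.28), Gapdh (0.19), Pgam1 (0.053) and Pdk4 (0.19). Leaving out sex reversed Slc2a1 (-0.040) and Pdk3 (-0.085). Against HET alone Hk3 (0.32), Pfkp (0.10), Pfkfb3 (-0.024) and Pdk4 (0.38) reversed, against WT alone Gapdh (0.23), and without both WT3 and HET3 Hk3 (0.79), Pfkp (0.35) and Pgam1 (0.17). With 1 replicate left out the log2 fold change ran from -0.37 to 0.024 for Hk2, -1.44 to 0.997 for Hk3, -0.25 to 0.17 for Pfkp, -0.63 to 0.94 for Pfkfb1, -0.56 to 0.24 for Gapdh and -3.23 to 0.83 for Pdk4.

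Of the isozyme log2 ratios, Hk1/Hk2 reversed with female samples only (-0.26) and ran from -0.19 to 0.71 with 1 replicate left out. Pfkfb3/Pfkfb2 reversed with female samples only (-0.16) and ran from -0.18 to 0.26, Eno1/Eno3 reversed without both WT3 and HET3 (0.020) and ran from -0.16 to 0.12, and Ldha/Ldhb reversed without both WT3 and HET3 (0.13). Pkm/Pklr ran from -0.21 to 3.11. With the length of the longest transcript in place of all exons, the shares became 88.2% for Hk1, 72.7% for Pfkl, 82.3% for Bpgm, 94.0% for Eno1 and 70.1% for Pdk3, each still the leading isozyme. Eno2 and Pdk4 had 3 or fewer reads in several libraries, which limits the precision of their fold changes.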
